A study of Mus musculus with 3 samples.

Results

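Within the conventional type 1 dendritic cells (cDC1s) of a mouse tumour, cells that carried the cDC1 genes and little of the activation programme fell into several clusters, and the data below set one of them, cluster 0, against clusters 2 and 3 as a pair. The cells were chosen by the cluster number in the deposited table of cDC1s, and they came to 2491 of the 5806 cDC1s in that table and of the 30209 barcodes of the series. Cluster 0 held 991 of them, cluster 2 held 816 and cluster 3 held 684. The tumours were grown from MCA205 LA OVA, a transplantable fibrosarcoma line that carries a model antigen, and the RNA of single cDC1s, mixed with sorted cDC2s and pre-cDCs, was measured in droplets. There were 3 libraries, 1 for each of the WT, sGSN-/- and sGSN-/-Clec9a-/- genotypes, and both mutants lack secreted gelsolin, an actin-binding protein of the blood plasma, while the last also lacks Clec9a, the cDC1 receptor for actin exposed by dead cells. All mice were on the C57BL/6J background, aged from weeks to a few months and of both sexes, pooled within each genotype. Tumours were injected into both flanks and taken in the first week of growth. Each library came from the pooled tumours of many mice, so that the spread between mice cannot be seen, and the cells had been digested with collagenase, enriched on Percoll and gated on CD11c, MHC class II and XCR1 without CD88.

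cDC1s take up material from dying cells and present it on MHC class I to CD8 T cells, which makes them central to the priming of responses against tumours. Immediate early genes such as Fos, Jun and Egr1 are transcribed within minutes of a stimulus without new protein synthesis, and their products are transcription factors or brakes on kinase signalling. They are switched on by growth factors, by cytokines and by handling and digestion of tissue alike.

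The sums of cluster 0 rested on 406 cells of the WT library, 286 of the sGSN-/- library and 299 of the sGSN-/-Clec9a-/- library, and those of clusters 2 and 3 on 668, 368 and 464 cells. In the same order cluster 0 summed to 6463562, 4484393 and 4076616 UMIs, and clusters 2 and 3 to 9879704, 5622565 and 5894418. Cells of both sides were of like depth, with a median of 14925 UMIs in cluster 0 and 14281 in clusters 2 and 3. Mitochondrial transcripts made up 1.73% and 1.69% of the UMIs and ribosomal protein transcripts 24.4% and 23.6%. Between 26 and 28 barcode sequences were shared by any pair of libraries, and 0 of these lay in clusters 0, 2 and 3 of both. Cluster 0 took 37.8% of the cells of the 3 clusters in the WT library (exact 95% interval 34.9 to 40.8), 43.7% in the sGSN-/- library (39.9 to 47.6) and 39.2% in the sGSN-/-Clec9a-/- library (35.7 to 42.8). The intervals overlapped, they cover counting error only, and with 1 library per genotype no test between genotypes could be made.

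The label of these cells was checked against marker genes. CPM is the UMI count of a gene over all UMIs of the summed cells, times 1000000, and values always follow the order WT, sGSN-/- and sGSN-/-Clec9a-/-. Xcr1, the chemokine receptor used to sort cDC1s, stood at 222, 256 and 243 CPM in cluster 0 and at 240.5, 270.0 and 273 CPM in clusters 2 and 3. Clec9a stood at 215, 213 and 0 CPM in cluster 0 and at 187, 183 and 0 CPM in clusters 2 and 3, so that it was absent from the library labelled as its knockout on both sides. Gsn, which encodes both the cellular and the secreted form of gelsolin, was at 154, 159 and 156 CPM and 142, 169.9 and 152 CPM, and counts of the whole gene do not check the loss of the secreted form. All 12 of the listed cDC1 markers were detected, with a summed level of 5367, 5512 and 5356 CPM in cluster 0 and of 6429.9, 6368 and 6224 CPM in clusters 2 and 3. The 8 cDC2 markers summed to between 19.1 and 27.4 CPM, with Mgl2 the most abundant and Clec4a4 at 0. The 7 pre-cDC markers summed to 33.7, 40.4 and 28.5 CPM in cluster 0 and to 49.1, 49.6 and 42.8 CPM in clusters 2 and 3. Among them Tcf4 was called higher in clusters 2 and 3 (log2 fold change -0.49, adjusted p 0.00605 in edgeR). The 8 markers of activated cDCs, among them Ccr7 and Fscn1, summed to between 12.3 and 21.7 CPM. Of the remaining lists, the 12 monocyte or macrophage markers reached 366 to 428 CPM with Ccr2 the most abundant, the 8 plasmacytoid markers 271 to 341 CPM with Bst2, and the 6 B cell markers 111 to 129 CPM with Ighm. NK cell markers summed to between 38.4 and 79.3 CPM with Klrd1 the most abundant and the sGSN-/- library the highest on both sides, T cell markers to between 2.78 and 6.58 CPM, fibroblast or tumour cell markers to between 3.91 and 9.31 CPM and neutrophil markers to at most 0.464 CPM.

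Fos, Ccl2 and Hspa1a were among the genes lower in cluster 0 than in clusters 2 and 3, and Vps37b and Cd14 among those higher in it. Of 9745 genes tested, 1854 had an adjusted p below 0.05 in the quasi-likelihood test of edgeR, 941 of them (9.66%) higher in cluster 0 and 913 (9.37%) higher in clusters 2 and 3. Among those changes, 76 of the genes higher in cluster 0 and 235 of the genes higher in clusters 2 and 3 exceeded a 2-fold difference. The clusters had been called on these same counts, so the adjusted p is no test of whether the clusters differ. It sets the size of a difference against the spread between the 3 libraries, which are of 3 genotypes. With the library as a block, which pairs both sums of a pool of mice, 2787 genes passed, 1552 (15.9%) higher in cluster 0 and 1235 (12.7%) higher in clusters 2 and 3. Counts called in the lists below are to be read beside these shares, with and without the block. Leaving out the WT library left 836 and leaving out the sGSN-/- library left 953. All fold changes carry TMM factors, and without them the median over all genes moved by -0.11 on the log2 scale, so that 351 genes passed as higher in cluster 0 and 1358 as higher in clusters 2 and 3. Small differences are therefore to be read relative to that shift.

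Fos and Jun, which encode the AP-1 transcription factor, were lower in cluster 0. The study names both, with Dusp1, for resting clusters that include clusters 2 and 3. It did so from these same cells, so the direction of these genes is no independent result. Fos stood at 1251, 1195 and 1374 CPM in cluster 0 and at 4785, 4427 and 4512 CPM in clusters 2 and 3. Every sum of cluster 0 lay below every sum of the other side, with a log2 fold change of -1.73 ± 0.08 (SE, 3 sums against 3) and an adjusted p of 4.48e-11. Jun, the partner of Fos in AP-1, was at 267, 214 and 260.3 CPM in cluster 0 and at 1118, 982 and 880.5 CPM in clusters 2 and 3 (log2 fold change -1.89 ± 0.09). Junb, a related factor, did not pass the test, with 1775, 1992 and 1956 CPM in cluster 0 against 2247, 2396 and 2207 CPM on the other side (log2 fold change -0.15 ± 0.07, adjusted p 0.165). The level of Junb hid a split, as it was 1496, 1742 and 1609 CPM in cluster 2 against 3089.7, 3123 and 3033 CPM in cluster 3, with cluster 0 between them. Against cluster 2 alone it was higher in cluster 0 by 0.32 on the log2 scale. Junb did not pass in 8 of 12 alternatives (adjusted p from 1.45e-05 to 0.628).

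Egr1, a zinc finger factor induced by the ERK pathway, was at 241, 295 and 371 CPM in cluster 0 and at 1055, 1141 and 1121 CPM in clusters 2 and 3 (log2 fold change -1.76 ± 0.12, adjusted p 5.16e-09). Dusp1, a phosphatase that switches off p38 and JNK, was at 311, 315 and 352 CPM and 1191, 937 and 1182 CPM (log2 fold change -1.65 ± 0.10). Neither gene overlapped between the sides. Klf2 and Klf6, Kruppel-like factors, were lower in cluster 0 by log2 fold changes of -1.63 and -1.25, and Zfp36, which destabilises cytokine mRNAs, by -1.12. Gadd45b, a stress-induced regulator of MAP kinase signalling, stood at 69.6, 49.3 and 74.1 CPM in cluster 0 and at 307, 282 and 333 CPM in clusters 2 and 3 (log2 fold change -2.14 ± 0.12). Its level in cluster 0 was the lowest of the 12 clusters of cDC1s, whose highest level was 1789 CPM in cluster 8.

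Immediate early genes as a list did not share a direction. Of the 30 listed and tested, 18 were higher in clusters 2 and 3 and 7 in cluster 0, with a median log2 fold change of -0.68 against -0.01 over all genes tested. Under the block 19 were higher in clusters 2 and 3 and 7 in cluster 0. Those higher in cluster 0 were Fosl2, Egr3, Nr4a2, Nr4a3, Dusp5, Btg2 and Srf, of which Srf was lost when any 1 library was left out (adjusted p 0.117, 0.0989 and 0.0830 without the WT, sGSN-/- and sGSN-/-Clec9a-/- library) and, with Egr3, in DESeq2 and without TMM factors. Against cluster 3 alone Fosl2, Egr3 and Srf did not pass (adjusted p 0.0626, 0.0549 and 0.456), nor Nr4a3 against cluster 2 alone (0.0771). Btg2, an antiproliferative co-regulator of mRNA decay, was at 1854, 1744 and 1913 CPM in cluster 0 against 1474, 1610.1 and 1380.3 CPM in clusters 2 and 3. The sums of Btg2 did not overlap (log2 fold change 0.42 ± 0.07), yet the difference lay with cluster 2, at 995, 1168 and 1102 CPM, while cluster 3 was at 2011, 2102 and 1766 CPM and did not pass against cluster 0 (adjusted p 0.835, range over the alternatives 8.21e-13 to 0.835). Dusp5, a phosphatase specific for ERK, differed by 0.72 and the nuclear receptor gene Nr4a2 by 0.48. Atf3, a stress-induced factor of the CREB family, was at 1181, 1195 and 1165 CPM in cluster 0. It stood at 1241, 1314 and 1159 CPM for cluster 2 against 2575, 2232 and 2077 CPM for cluster 3, and its log2 fold change of -0.43 against both clusters became 0.02 against cluster 2 alone.

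A list of genes associated with enzymatic dissociation, which shares many members with the immediate early and heat shock lists, had 18 of 28 tested members higher in clusters 2 and 3 and 3 higher in cluster 0, with a median log2 fold change of -0.73. Those higher in cluster 0 were Btg2 and the metallothionein genes Mt1 and Mt2, which encode metal-binding proteins, with log2 fold changes of 0.87 and 1.39 for Mt1 and Mt2. The part of the digestion in these levels was not tested.

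The promoters of the immediate early genes were searched for the cAMP response element TGACGTCA and for its first 5 letters, TGACG, on both strands of the 250 bases before the gene start, the shorter motif being contained in the longer. RefSeq promoters of build GRCm38.p6 matched 26 of the 30 immediate early genes. Of these, 3 held TGACGTCA (Dusp1, Btg2 and Maff), as did 1.77% of the 27025 genes with a promoter, and 16 held TGACG, as did 19.8% of all genes. Genes with TGACG went in both directions. Nr4a2, Nr4a3, Dusp5, Btg2 and Srf were higher in cluster 0. Fos, Fosb, Egr2, Atf3, Dusp1, Klf2, Klf4 and Maff were higher in clusters 2 and 3, and Junb, Nr4a1 and Csrnp1 did not pass. The stretches before Fos (chr12:85473640-85473889, plus strand) and Dusp1 (chr17:26508473-26508722, minus strand) are shown, with the matches in capitals, because these are the immediate early genes that the study names for the clusters and that hold a match, while Jun, which it also names, held neither motif. A match is a description of letters and does not show a bound site.
Fos: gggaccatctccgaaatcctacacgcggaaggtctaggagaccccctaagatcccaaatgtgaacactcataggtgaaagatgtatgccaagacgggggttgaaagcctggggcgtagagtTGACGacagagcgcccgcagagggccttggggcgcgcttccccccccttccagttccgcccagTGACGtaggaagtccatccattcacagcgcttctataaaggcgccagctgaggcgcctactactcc
Dusp1: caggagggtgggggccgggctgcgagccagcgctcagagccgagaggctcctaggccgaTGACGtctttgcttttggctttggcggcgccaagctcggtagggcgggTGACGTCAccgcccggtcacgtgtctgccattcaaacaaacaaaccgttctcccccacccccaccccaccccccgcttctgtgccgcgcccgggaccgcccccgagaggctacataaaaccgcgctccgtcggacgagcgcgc
The window of Fos held TGACG starting 129 and 66 bases before the gene start, and that of Dusp1 held TGACGTCA starting 143 bases before it and a further TGACG at 191.

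**Figure D1:**
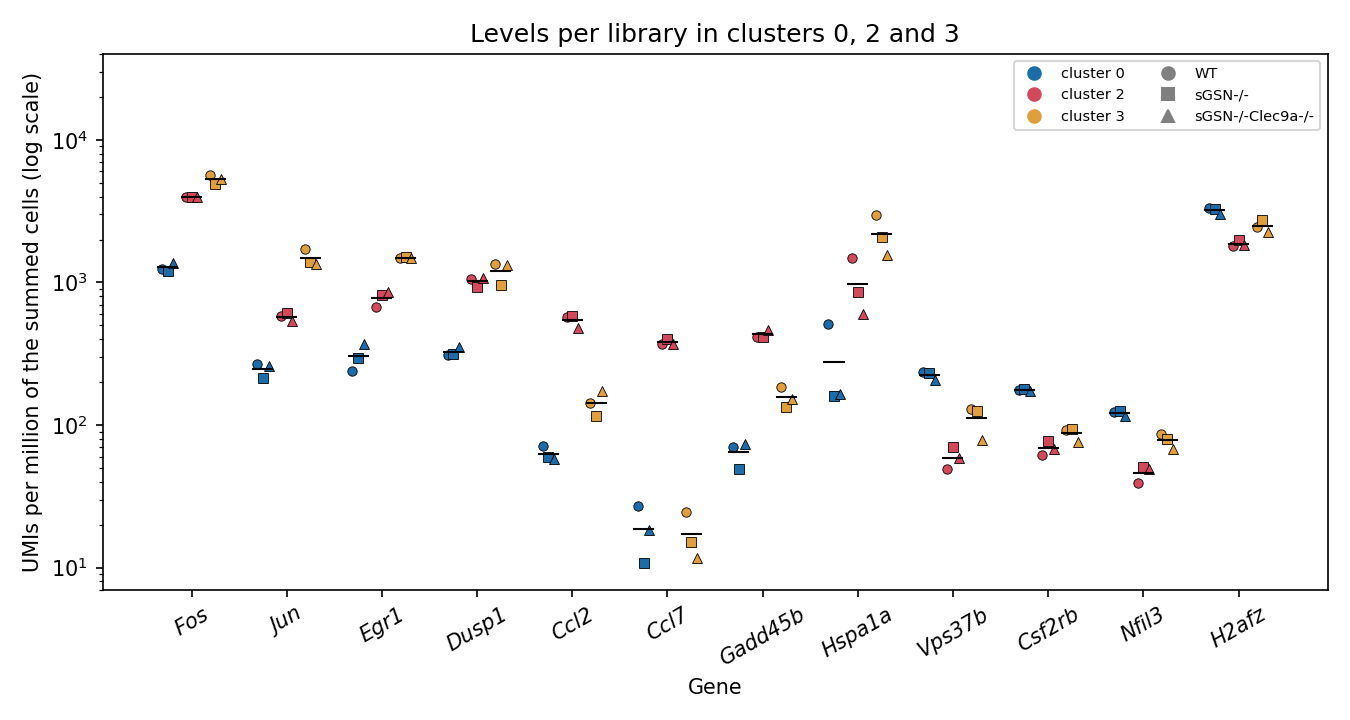
The vertical axis gives the level in CPM of the summed cells on a log scale for 12 genes along the horizontal axis, with colours for clusters 0, 2 and 3, a marker shape for each library and a bar for the mean of the 3 libraries. Fos lies at a mean of 1274 CPM in cluster 0, against 3981 CPM for cluster 2 and 5288 CPM for cluster 3, Ccl7 is high in cluster 2 alone, and Vps37b is higher in cluster 0 than in clusters 2 and 3.

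The chemokine genes Ccl2, Ccl7, Ccl3 and Ccl4 were lower in cluster 0 than in clusters 2 and 3, and higher in cluster 2 than in cluster 3. Ccl2, which attracts monocytes through the receptor Ccr2, stood at 71.6, 59.5 and 57.4 CPM in cluster 0 and at 370.1, 362 and 351 CPM in clusters 2 and 3. The sides did not overlap, with a log2 fold change of -2.40 ± 0.08 and an adjusted p of 5.21e-13. Within the pooled side Ccl2 was at 572, 584 and 479.9 CPM in cluster 2 and at 143, 116 and 173 CPM in cluster 3, so that cluster 3 too lay above cluster 0. Ccl7, a neighbour of Ccl2 that acts on the same receptor, was at 26.9, 10.7 and 18.4 CPM in cluster 0 against 207, 220.0 and 219.9 CPM in clusters 2 and 3 (log2 fold change -3.36 ± 0.16). Its level was 369, 404 and 370.3 CPM in cluster 2 but only 24.5, 15.0 and 11.7 CPM in cluster 3, and against cluster 3 alone the log2 fold change turned to 0.21 (adjusted p 0.622, range over the alternatives 9.18e-249 to 0.622). Ccl3, a ligand of Ccr1, showed the same arrangement, with 21.7, 26.1 and 13.7 CPM in cluster 0 and 15.7, 29.3 and 16.6 CPM for cluster 3, against 152, 91.5 and 120.1 CPM for cluster 2. Ccl4, its close relative, was at 901, 647 and 816 CPM in cluster 0 against 1295, 1185 and 1188 CPM in clusters 2 and 3 (log2 fold change -0.52 ± 0.09), and did not pass against cluster 3 alone or with all clusters in the fit (adjusted p 0.586 and 0.0549, range 3.08e-14 to 0.586).

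Cytokine genes did not share a direction. Of 16 tested genes for inflammatory cytokines and chemokines, 4 were higher in clusters 2 and 3 and 3 in cluster 0, beside 9.37% and 9.66% of all genes tested. The median log2 fold change of the list was 0.03, and it turned to -0.08 without TMM factors. It was 0.17, -0.16 and 0.01 without the WT, sGSN-/- and sGSN-/-Clec9a-/- library. Il1b, the pyrogenic cytokine, was at 2220.4, 2245 and 1808 CPM in cluster 0 and at 1452, 1592 and 1043 CPM in clusters 2 and 3 (log2 fold change 0.73 ± 0.10), so that the lowest sum of cluster 0 exceeded the highest of the other side. Tnf was scarce, at 1.55, 1.56 and 3.43 CPM in cluster 0 against 24.0, 16.2 and 19.8 CPM in clusters 2 and 3 (log2 fold change -3.18 ± 0.25). Within the pooled side Tnf was called higher in cluster 2 than in cluster 3, so the pooled level joins unlike clusters. The chemokine gene Cxcl16 was higher in cluster 0, by 0.45. Il1a, at 3.56, 4.46 and 5.40 CPM in cluster 0, passed at 1.28 but not without the WT or the sGSN-/-Clec9a-/- library (adjusted p 0.0670 and 0.115).

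Of 15 tested heat shock chaperones, 7 were higher in clusters 2 and 3 and 1, Hspa4, in cluster 0 (median log2 fold change -0.33), with 11 and 1 under the block. Hspa1a, an inducible Hsp70, stood at 508, 159 and 166 CPM in cluster 0 and at 2174, 1434 and 1001 CPM in clusters 2 and 3 (log2 fold change -2.34 ± 0.31, adjusted p 2.8e-05). The WT library was the highest on both sides, and the sides did not overlap. Hspa1b, a near-identical neighbouring copy whose reads are hard to separate from those of Hspa1a, was at 173, 50.4 and 48.3 CPM and 864, 481 and 352 CPM, with a log2 fold change of -2.48 ± 0.34. Dnajb1, an Hsp40 co-chaperone, differed by -1.09 ± 0.17 and Hsp90aa1, the inducible Hsp90, by -0.79 ± 0.11. For Hspa4 the log2 ratios of the libraries were 0.438, -0.00379 and 0.333 with TMM factors, and it did not pass without the WT or the sGSN-/-Clec9a-/- library (adjusted p 0.424 and 0.139), in DESeq2 (0.0756) or without TMM factors (0.339). Against cluster 3 alone 12 were higher in cluster 3, and against cluster 2 alone 4 in cluster 2.

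Further genes low in cluster 0 belonged to no list. Cited2, a co-regulator that competes for the acetyltransferase p300, differed by -1.78 ± 0.11 and Rnd3, which opposes actomyosin contraction, by -1.67 ± 0.13. Neither passed between clusters 2 and 3 (adjusted p 0.770 for Cited2 and 0.187 for Rnd3).

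Vps37b, Cd14 and Pde4b were higher in cluster 0 than in clusters 2 and 3. Vps37b, a subunit of the ESCRT-I complex that sorts ubiquitinated receptors, stood at 234, 231 and 208 CPM in cluster 0 and at 87.2, 95.9 and 66.8 CPM in clusters 2 and 3. No sums overlapped, with a log2 fold change of 1.54 ± 0.09 and an adjusted p of 9.62e-10. Cd14, a co-receptor for lipopolysaccharide that is also a monocyte marker, was at 80.8, 71.4 and 71.6 CPM and 31.6, 33.1 and 23.2 CPM (log2 fold change 1.46 ± 0.10), and cluster 0 had the highest mean of the 12 clusters. It was the 1 called gene of the 12 monocyte or macrophage markers. Pde4b, which degrades cAMP, was at 125, 150.1 and 142 CPM and 53.8, 66.3 and 44.6 CPM (log2 fold change 1.45 ± 0.10).

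Csf2rb, the signalling chain of the receptors for GM-CSF and IL-3, was at 175, 179 and 174 CPM in cluster 0 against 76.2, 85.2 and 70.9 CPM in clusters 2 and 3 (log2 fold change 1.30 ± 0.07). The libraries of cluster 0 were within a few CPM of one another and above all sums of the other side. Csf2ra, the ligand-binding chain, was at 248, 251 and 244 CPM and 239, 244 and 213 CPM with a log2 fold change of 0.21 ± 0.07, which did not pass against cluster 2 alone, without TMM factors or without the WT, sGSN-/- or sGSN-/-Clec9a-/- library (adjusted p 0.146, 0.396, 0.117, 0.120 and 0.117, range 0.000604 to 0.396). Gpr65, a proton-sensing receptor, was at 580.5, 489 and 501 CPM in cluster 0 against 269, 251 and 286 CPM on the other side (log2 fold change 1.07 ± 0.08). Grasp, a scaffold protein of receptor trafficking, differed by 1.01 ± 0.10.

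Among transcriptional regulators, Nfe2l2, which encodes the oxidative stress factor NRF2, was at 291, 250.4 and 226 CPM in cluster 0 against 127, 122 and 88.9 CPM in clusters 2 and 3 (log2 fold change 1.29 ± 0.10). Nfil3, a basic leucine zipper factor needed for cDC1 development, was at 124, 125 and 117 CPM and 61.1, 64.7 and 57.0 CPM (log2 fold change 1.11 ± 0.07). Both genes were higher in every sum of cluster 0. Ncoa7, a nuclear receptor coactivator, differed by 1.18 ± 0.08, Chd7, a chromatin remodeller, by 1.13 ± 0.09 and Gfod1 by 1.08 ± 0.09. Jdp2, a repressor of AP-1, was at 213, 185 and 80.5 CPM in cluster 0 against 101, 98.0 and 37.7 CPM in clusters 2 and 3. The sGSN-/-Clec9a-/- library was the lowest on both sides and the sides overlapped, and the log2 fold change of 1.13 ± 0.27 had an adjusted p of 0.00582 in edgeR and of 0.193 in DESeq2, and against cluster 3 alone of 0.139 (range over the alternatives 5.21e-41 to 0.193). Its mean was the highest of the 12 clusters in cluster 0 and the lowest in cluster 2.

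H2afz, Lyz2 and Sub1 had their highest mean level of all 12 clusters in cluster 0. The study names these genes for cluster 0 from these same cells and clusters. Their rank and their differences are therefore no independent result. H2afz, the histone variant H2A.Z, stood at 3305, 3297 and 3042 CPM in cluster 0 against 2106, 2332 and 1998 CPM in clusters 2 and 3 (log2 fold change 0.70 ± 0.07, adjusted p 7.36e-07). Lyz2, the myeloid lysozyme, was at 1290.3, 1194 and 1228 CPM and 935, 816 and 908 CPM (log2 fold change 0.59 ± 0.07). Sub1, a coactivator that binds single-stranded DNA, was at 1908, 1878 and 1825 CPM and 1284, 1364 and 1282 CPM (log2 fold change 0.63 ± 0.07). No sum of cluster 0 overlapped the other side in these genes. Cluster 2 was lower than cluster 3 in H2afz and Sub1, with log2 fold changes of -0.36 and -0.36, and higher in Lyz2, with 0.38. Between clusters 2 and 3 these genes did not pass without the sGSN-/- library (adjusted p 0.177, 0.118 and 0.116), nor H2afz and Sub1 without the WT library (0.0971 and 0.0542).

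The counts of the next lists depended on single libraries and on TMM factors. Of 19 tested genes of early cDCs, 8 were higher in cluster 0 and 0 in clusters 2 and 3, with a median log2 fold change of 0.24. Those 8 include Lyz2, which the study names for cluster 0 from these same cells. S100a4, S100a6 and Ifitm1, which the study names for its early cDC1s, did not pass. The count higher in cluster 0 was 6 without the WT library and 3 without the sGSN-/- library, 4 without TMM factors and 13 with the library as a block. S100a11, a calcium-binding protein of this list, differed by 0.37 and missed the threshold without the sGSN-/- library (adjusted p 0.0503). Of 18 genes of mRNA processing and abundant nuclear proteins, 12 were higher in cluster 0 (median 0.23), with 2 without the WT library and 4 without the sGSN-/- library, 1 without TMM factors and 17 under the block. Those 12 include Sub1, which the study also names for cluster 0. Of 25 actin and motility genes, 12 were higher in cluster 0 (median 0.20), among them Actg1, the cytoplasmic gamma actin, at 0.29, with 3 without the WT library and 2 without the sGSN-/- library, 4 without TMM factors and 20 under the block. Actg1 did not pass without the WT or the sGSN-/- library or against cluster 3 alone (adjusted p 0.0731, 0.0690 and 0.0722, range 1.4e-14 to 0.0731).

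Of 78 nuclear genes of oxidative phosphorylation, 44 were higher in cluster 0 and 0 in clusters 2 and 3, with a median log2 fold change of 0.23. The count was 11 without the WT library and 14 without the sGSN-/- library, 8 without TMM factors, at a median of 0.11, 18 against cluster 2 alone and 64 under the block. Of 37 proteasome subunits, 26 were higher in cluster 0 (median 0.26), among them Psma7 of the core particle at 0.28, with 5 without the WT library and 8 without the sGSN-/- library, 3 without TMM factors and 31 under the block. Psma7 did not pass without the WT library or without TMM factors (adjusted p 0.0586 and 0.0829, range 2.02e-07 to 0.0829). Of 80 ribosomal protein genes 4 passed, all higher in cluster 0 (median 0.16), with 77 under the block and 1, 1 and 22 without the WT, sGSN-/- and sGSN-/-Clec9a-/- library, and of 13 mitochondrially encoded genes 0 passed in edgeR, 4 at an unadjusted p below 0.05, 0 in DESeq2, 3 without the sGSN-/-Clec9a-/- library and 9 under the block (median 0.15).

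Of 18 tested genes of cDC1 identity, 7 were higher in clusters 2 and 3 and 2 in cluster 0, where 9.37% and 9.66% of all genes tested were called (median log2 fold change -0.09). Without the WT and without the sGSN-/- library these counts were 4 and 4 for clusters 2 and 3 and 0 and 0 for cluster 0. In the same order of sides they were 9 and 0 without TMM factors, 8 and 5 under the block, 10 and 1 against cluster 2 alone and 3 and 4 against cluster 3 alone, where the median turned to 0.08. Irf8, the factor that specifies cDC1s, stood at 987, 1002 and 1046 CPM in cluster 0 against 1568, 1514 and 1478 CPM in clusters 2 and 3 (log2 fold change -0.47 ± 0.07). The sides did not overlap, and its level was 1590.2, 1547 and 1472 CPM in cluster 2 against 1542, 1477 and 1487 CPM in cluster 3. Zbtb46, a factor of the cDC lineage, was lower in cluster 0 by -0.73, Snx22, a sorting nexin, by -0.87 and Id2, an inhibitor of basic helix-loop-helix factors, by -0.39, with no call for Id2 against cluster 3 alone (adjusted p 0.171). Tlr3, the sensor of double-stranded RNA, differed by -0.26 ± 0.08 (adjusted p 0.0396), and it did not pass in DESeq2, with all clusters in the fit, against cluster 3 alone or without the WT or the sGSN-/- library (adjusted p 0.0812 and 0.228, range 0.000103 to 0.343). Wdfy4, needed for cross-presentation, and Rab7b, an endosomal GTPase, were higher in cluster 0 by 0.24 and 0.24, but neither passed without TMM factors, without the WT library (adjusted p 0.0867 and 0.0630) or without the sGSN-/- library (0.197 and 0.163).

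Cd86, a ligand of CD28, stood at 199, 182 and 179 CPM in cluster 0 against 169, 162 and 151 CPM in clusters 2 and 3 (log2 fold change 0.33 ± 0.07, and 0.21 without TMM factors, adjusted p 0.0623, range 1.93e-06 to 0.0623). The related Cd80 was scarce, at 15.9, 18.1 and 10.5 CPM and 4.05, 5.34 and 6.11 CPM (log2 fold change 1.69 ± 0.21), and Cd274, which encodes PD-L1, differed by 1.28. Icam1, an adhesion molecule, was at 57.4, 58.6 and 63.0 CPM in cluster 0 against 99.9, 89.1 and 94.3 CPM in clusters 2 and 3 (log2 fold change -0.56 ± 0.08). Against cluster 2 alone Icam1 had -0.16 and did not pass (adjusted p 0.272, range 7.25e-09 to 0.272). The cytokine signalling inhibitors Socs1 and Socs3 were lower in cluster 0 by log2 fold changes of -1.43 and -0.92. In all, 4 of 11 tested genes of costimulation and maturation were higher in cluster 0 and 5 in clusters 2 and 3 (median -0.13). The median was -0.04, -0.08 and -0.27 without the WT, sGSN-/- and sGSN-/-Clec9a-/- library, and it turned to 0.11 with low counts left in, 0.14 with all clusters in the fit and 0.06 against cluster 3 alone, so that it has no settled sign. Of 15 NF-kB subunits and inhibitors, 3 were higher in cluster 0 (Nfkb2, Rel and Nfkbie) and 3 in clusters 2 and 3 (Nfkbia, Nfkbid and Tnfaip3). Of all genes tested, 9.66% and 9.37% were called in these directions. In the same order the counts were 1 and 3 without TMM factors and 2 and 2 in DESeq2. Rel did not pass without TMM factors (adjusted p 0.344) or with all clusters in the fit (0.0597). The list median was 0.05, with -0.07 without TMM factors and -0.03 against cluster 3 alone. Nfkb2, Rel and Tnfaip3 did not pass without the WT library (adjusted p 0.102, 0.101 and 0.358) or without the sGSN-/- library (0.119, 0.149 and 0.0795), and Nfkb2 also not without the sGSN-/-Clec9a-/- library (0.0759). Against cluster 3 alone Nfkb2, Rel and Nfkbie did not pass (0.302, 0.0800 and 0.0725), nor Tnfaip3 against cluster 2 alone (0.532). Nfkbia, which holds NF-kB in the cytoplasm, was at 112, 109.9 and 119 CPM in cluster 0 against 221, 215 and 186 CPM in clusters 2 and 3 (log2 fold change -0.76 ± 0.07).

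Of 12 MHC class II genes, 1 (H2-DMb1) was higher in cluster 0 and 2 (H2-Eb2 and Ciita) in clusters 2 and 3, with a median of 0.14. Of all genes tested, 9.66% and 9.37% were called in these directions, so that the counts were near the shares over all genes. H2-DMb1 did not pass without the WT or the sGSN-/- library (adjusted p 0.122 and 0.0713). Under the block 8 were higher in cluster 0, beside 15.9% of all genes tested. The count was 5 without the sGSN-/-Clec9a-/- library and 8 against cluster 3 alone. Ciita, the master regulator of class II transcription, was at 134, 141 and 145 CPM in cluster 0 against 217, 217 and 217 CPM in clusters 2 and 3 (log2 fold change -0.52 ± 0.07). Of 18 class I processing genes 4 were higher in cluster 0 (median 0.11), beside 9.66% of all genes tested, and without TMM factors the median was -0.00 and the count 0. That count was 9 under the block and 0 without the WT library and 0 without the sGSN-/- library. Against cluster 2 alone it was 0, at a median of 0.02. Among 9 receptors for dying cells and uptake, 2 were higher in cluster 0 and 0 in clusters 2 and 3 (median 0.18), beside 9.66% and 9.37% of all genes tested. The count higher in cluster 0 was 4 without the sGSN-/-Clec9a-/- library and 4 against cluster 3 alone. Under the block it was 5, beside 15.9% of all genes tested. The median was 0.11 without the WT library and 0.07 without TMM factors. Timd4, a phosphatidylserine receptor, was at 59.7, 53.1 and 63.3 CPM in cluster 0 against 24.6, 21.9 and 18.0 CPM in clusters 2 and 3 (log2 fold change 1.54 ± 0.11). Havcr2, which encodes TIM-3, was at 194, 208 and 168 CPM and 142, 155 and 124 CPM (log2 fold change 0.55 ± 0.08). Neither gene overlapped between the sides.

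The shares of called genes in the lists that follow are to be read beside those over all genes tested, 9.66% higher in cluster 0 and 9.37% higher in clusters 2 and 3, to which many are near, and under the block beside 15.9% and 12.7%. Type I interferon-stimulated genes had 2 of 16 higher in clusters 2 and 3 (Ifit2 and Stat2), the unfolded protein response 2 of 17 higher in cluster 0 and 2 in clusters 2 and 3, and lysosomal genes 1 of 20, Ctsl, higher in clusters 2 and 3. Under the block 8 genes of the unfolded protein response and 4 lysosomal genes were higher in cluster 0. Their medians without it, after that of the interferon list, were -0.07, 0.11 and 0.06. Ifit2 and Ctsl, like Hmgcs1, Insig1 and Abcg1 of the sterol list, did not pass without the sGSN-/- library (adjusted p 0.109, 0.0685, 0.130, 0.0791 and 0.169), nor Ifit2, Insig1 and Abcg1 without the WT library (0.121, 0.231 and 0.0814), nor Ifit2, Ctsl and Insig1 without the sGSN-/-Clec9a-/- library (0.171, 0.0743 and 0.123). Sterol genes had 4 of 16 higher in clusters 2 and 3 (Hmgcs1, Insig1, Abcg1 and Mylip, median -0.09), and glycolysis genes 0 of 14 in edgeR, with 3 at an unadjusted p below 0.05, 0 in DESeq2 and 3 under the block (median 0.11). S phase and histone genes had 2 of 17 higher in cluster 0 (median 0.09), Mcm4 and H2afz, of which the study names H2afz for cluster 0. G2 and M phase genes had 3 of 14 higher in cluster 0 and 2 in clusters 2 and 3 (median 0.13). Under the block 5 S phase genes were higher in cluster 0, and G2 and M phase genes had 3 and 4. Against cluster 3 alone 5 glycolysis genes and 3 S phase genes were higher in cluster 0, and 0 and 1 in cluster 3. Of 13 Toll-like receptors and adaptors 1, Tlr3, was higher in clusters 2 and 3 (median -0.10), and of 12 chemokine and growth factor receptors 2 were higher in cluster 0 and 1, Cxcr3, in clusters 2 and 3 (median 0.06). Cxcr3 did not pass when any 1 library was left out (adjusted p 0.118, 0.193 and 0.0729). With the WT, sGSN-/- and sGSN-/-Clec9a-/- library left out in turn, the genes higher in cluster 0 were 1, 1 and 1 of the unfolded protein response, 1, 1 and 1 of S phase, 2, 2 and 1 of G2 and M phase and 1, 1 and 1 of the receptors. Without TMM factors the medians of the unfolded protein response, lysosomal, glycolysis, S phase and receptor lists were below 0, at -0.01, -0.06, -0.01, -0.02 and -0.06. Of 7 nuclear-retained long RNAs 1, Neat1, was higher in clusters 2 and 3, at 337, 280.3 and 459 CPM against 129, 105 and 177 CPM in cluster 0 (list median -0.03). Further medians changed sign with a setting, that of the sterol list to 0.02 without the sGSN-/-Clec9a-/- library, those of the interferon list and the long RNAs to 0.14 and 0.08 against cluster 3 alone, and those of the lysosomal, glycolysis and receptor lists to -0.02, -0.04 and -0.06 against cluster 2 alone.

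Clusters 2 and 3 were then set against each other to show how far the pooled side was of a piece. Ccl7, Ccl3 and Xcr1 were among the genes higher in cluster 2, and Jun and Hspa1a among those higher in cluster 3. Of 9038 genes tested, 613 passed, 249 (2.76%) higher in cluster 2 and 364 (4.03%) higher in cluster 3. With the library as a block 1056 passed, 514 (5.69%) higher in cluster 2 and 542 (6.0%) higher in cluster 3, and 248 and 242 without the WT and without the sGSN-/- library. Counts called in lists between clusters 2 and 3 are to be read beside these shares. Without TMM factors 159 passed as higher in cluster 2 and 400 as higher in cluster 3.

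Ccl7 had a log2 fold change of 4.44 ± 0.14 for cluster 2 over cluster 3 (adjusted p 1.78e-15), Ccl3 of 2.68 ± 0.18 and Ccl2 of 1.97 ± 0.11. Ier3, an immediate early gene that restrains cell death, was at 220.3, 244 and 298 CPM in cluster 2 against 85.3, 80.8 and 88.6 CPM in cluster 3 (log2 fold change 1.63 ± 0.11). It was at 54.6, 54.4 and 53.5 CPM in cluster 0, so that the sums of cluster 2 stood far above both other clusters. Gadd45b was higher in cluster 2 by 1.51 ± 0.10. Il12b, the p40 subunit of IL-12, was at 12.6, 9.79 and 14.3 CPM in cluster 2 against 1.29, 1.88 and 0 CPM in cluster 3. Of 14 tested cytokine and chemokine genes 7 were higher in cluster 2 and 1, Il1b, in cluster 3 (median log2 fold change 0.46 against 0.01 over all genes tested). The median was 0.72, 0.19 and 0.28 without the WT, sGSN-/- and sGSN-/-Clec9a-/- library and 0.07 with low counts left in, where 7 and 4 were called. Il1b did not pass without the WT library (adjusted p 0.279) or in DESeq2 (0.315). Of those higher in cluster 2, Cxcl2 had log2 ratios of 0.757, -0.0215 and 1.23 in the libraries with TMM factors, and it did not pass in DESeq2 or without the WT or the sGSN-/-Clec9a-/- library (adjusted p 0.231 and 0.251).

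On the side of cluster 3, Jun stood at 578, 606 and 537 CPM in cluster 2 against 1724, 1399 and 1355 CPM in cluster 3 (log2 fold change -1.33 ± 0.09, adjusted p 2.09e-09). Snhg15, a host transcript of a small nucleolar RNA, was at 37.7, 42.9 and 37.4 CPM and 105, 103 and 91.0 CPM (log2 fold change -1.31 ± 0.10), with cluster 0 between them at 59.1, 59.5 and 62.3 CPM. Trim25, a ubiquitin ligase of the RIG-I pathway, was at 44.8, 46.3 and 41.2 CPM and 116, 115 and 86.5 CPM (log2 fold change -1.22 ± 0.10), and cluster 0 was above cluster 3 in each library, at 143, 136 and 115 CPM. Bcl2l11, which encodes the death-promoting protein BIM, was at 38.5, 32.4 and 33.9 CPM in cluster 2 against 78.4, 102 and 72.0 CPM in cluster 3 (log2 fold change -1.19 ± 0.12). Jdp2 had the log2 fold change -1.33 ± 0.25, and its adjusted p of 0.00120 was no longer below 0.05 without the WT library (0.0726) or in DESeq2 (0.243).

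Of 30 immediate early genes 17 were higher in cluster 3 and 4 in cluster 2 (median -0.39), the latter being Egr2, Ier3, Nr4a3 and Gadd45b. Nr4a3 did not pass without the sGSN-/- or the sGSN-/-Clec9a-/- library (adjusted p 0.0623 and 0.0609). Of 15 chaperones 12 were higher in cluster 3 and 0 in cluster 2 (median -0.67), with 4 higher in cluster 3 without the sGSN-/- library and 8 in DESeq2. Hspa1a was at 1483, 857 and 599.7 CPM and 2949, 2075 and 1555 CPM, and it did not pass without the sGSN-/- library (adjusted p 0.105) or in DESeq2 (0.184). The WT library was the highest in both clusters for Hspa1a, and the sums of cluster 2 and cluster 3 did not overlap. Of the dissociation-associated genes 23 of 28 were higher in cluster 3 and 1 in cluster 2 (median -0.74).

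Xcr1 was at 297, 341 and 305 CPM in cluster 2 against 177, 191 and 230.1 CPM in cluster 3 (log2 fold change 0.71 ± 0.10), and against cluster 3 alone it was higher in cluster 0 by 0.40. Of 18 cDC1 identity genes 8 were higher in cluster 2 and 0 in cluster 3 (median 0.26), with 5 without the WT library and 2 without the sGSN-/- library higher in cluster 2. Of 15 interferon-stimulated genes 7 were higher in cluster 2 (median 0.28), with 4 called without TMM factors, 3 in DESeq2 and 1, 1 and 3 without the WT, sGSN-/- and sGSN-/-Clec9a-/- library. Malat1, a nuclear long RNA, was at 35173, 32499 and 32749.7 CPM in cluster 2 against 29872, 26905 and 24436 CPM in cluster 3 (log2 fold change 0.36 ± 0.09), and did not pass without the WT or the sGSN-/- library (adjusted p 0.113 and 0.194). Cluster 0, at 32241, 29686 and 27352 CPM, did not pass the test against clusters 2 and 3 (adjusted p 0.540), nor in 10 of 12 alternatives (range 0.000647 to 0.846).

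**Figure D2:**
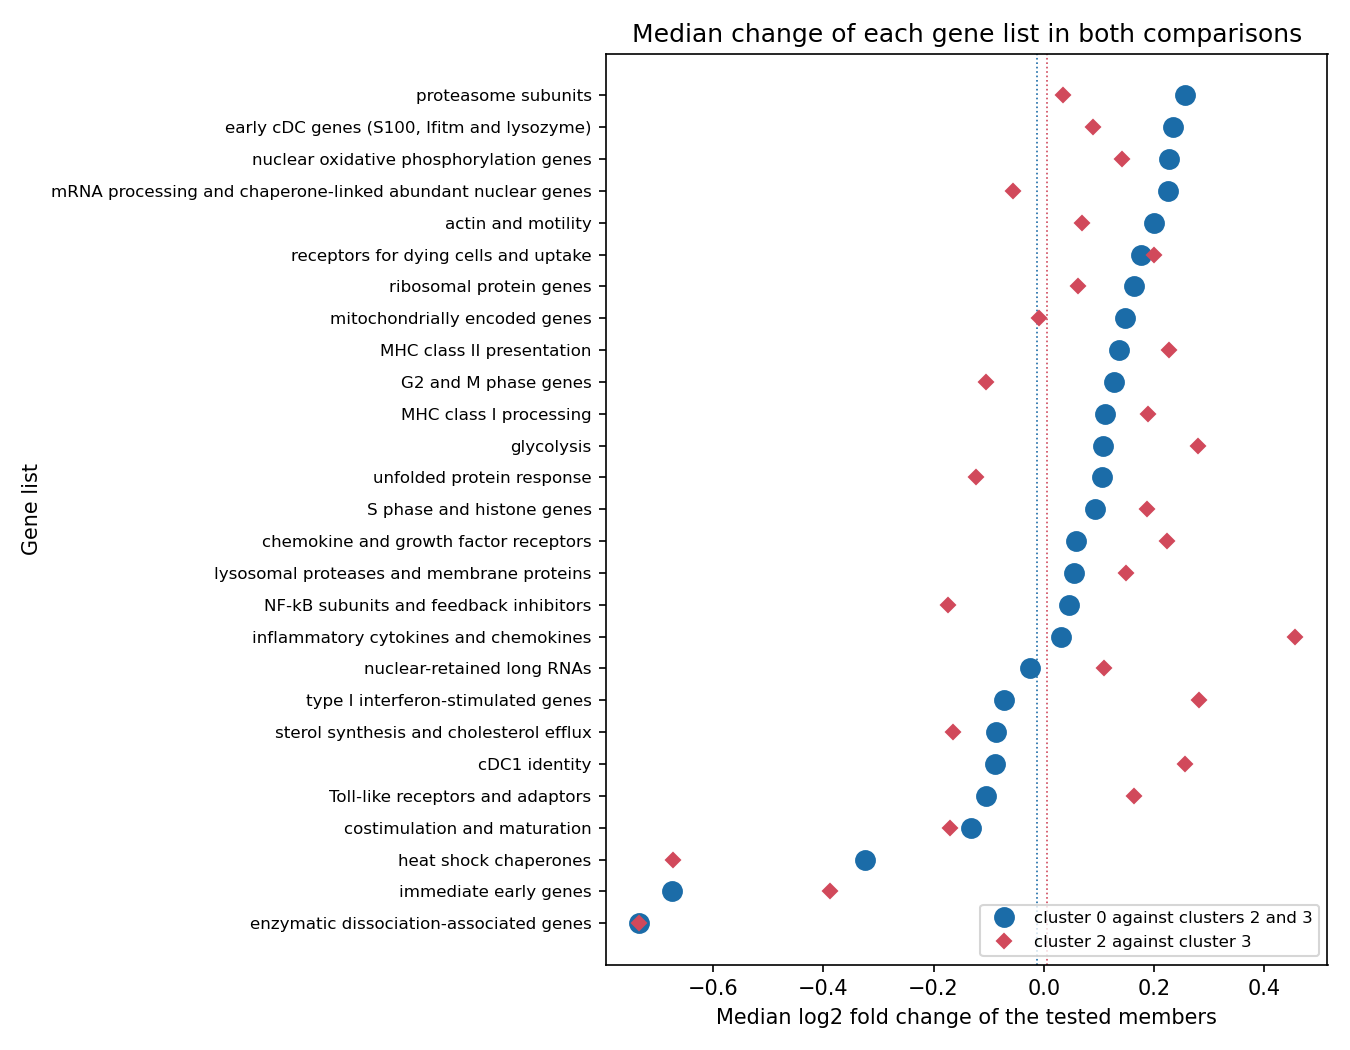
The horizontal axis gives the median log2 fold change of the tested members of each of 27 gene lists, circles for cluster 0 against clusters 2 and 3 and diamonds for cluster 2 against cluster 3, with dotted lines for the median of all genes tested. Immediate early, chaperone and dissociation-associated genes lie to the left in both comparisons, and without TMM factors the circles move left by about 0.11 and the diamonds by about 0.05.

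Set among all 12 clusters of cDC1s, the levels of these genes did not form a single order. Fos had its highest mean in cluster 3 and its next in cluster 2, with cluster 0 in place 11. Dusp1 had its highest mean in cluster 6, at 1425 CPM, with cluster 3 next, and Jun and Egr1 in cluster 9, again with cluster 3 next. Ccl2 and Ccl7 were highest in cluster 2. Vps37b, Pde4b and Csf2rb were highest in cluster 11, which the study reads as likely dying, and lowest in cluster 2, with cluster 3 in places 10, 11 and 10, and cluster 0 took places 4, 8 and 7 of 12 for these genes. Nfe2l2, Chd7 and Grasp were also lowest in cluster 2, with cluster 3 in places 10, 11 and 10 and cluster 0 in places 6, 6 and 7. The difference of cluster 0 from clusters 2 and 3 in all of these genes therefore includes low levels in clusters 2 and 3. For Nfil3 and Ncoa7 cluster 0 stood in places 3 and 2. Some named genes overlap others in the annotation, Dusp1 with Ergic1, Jun with its antisense transcript Junos, Il1b with Il1bos and Junb with Prdx2, and the sources used here do not state whether counting used the strand, so their counts could include reads of the partner.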

How the data were processed

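For every library the authors deposited a matrix of raw UMI counts (Cell Ranger, 6.0.1 in its header, on mm10), and for the series a table of cDC1s with library, cluster, UMIs and genes per cell. The submitters' processing notes name Seurat 4.0.0. Clusters were called on integrated data, and the authors removed barcodes with few genes, clusters of dying cells and cells rich in mitochondrial transcripts, and they also took out T, NK, plasmacytoid and dividing cells. Their treatment of doublets is not given in the sources read. The 2 UMAP coordinate columns were not used. UMIs per cell in the table equalled the matrix for 1938 of 2491 cells and differed by at most 5 in the rest.

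Counts were summed per library and cluster and compared with edgeR 4.0.16 in R 4.3.3 (TMM, filterByExpr, quasi-likelihood F-test, Benjamini-Hochberg at 0.05). SE is the absolute log2 fold change over the square root of F. CPM use the total of each sum without TMM factors. The sums of a library come from the same pool of mice, which pairs them, and the correlations of their deviations from the group means were 0.189, 0.165 and 0.252 (cluster 0 against clusters 2 and 3) and 0.183, 0.152 and 0.210 (cluster 2 against cluster 3) for the WT, sGSN-/- and sGSN-/-Clec9a-/- libraries. Alternatives were the library as a block, DESeq2 1.42.0, library sizes with no TMM factors, low counts left unfiltered, leaving out each library, cells thinned to 8000 UMIs (120 shallower cells left out), doublets left out, all clusters in the fit, and cluster 2 or cluster 3 alone on the other side. The automatic threshold of Scrublet (scanpy 1.11.5) called 0, 0 and 539 barcodes, so the 6% with the highest scores were taken as doublets. The test was checked on simulated counts, where it found most genes changed 2-fold and missed most changed by 1.25 times, and where the share of unchanged genes among the calls exceeded the threshold in cluster 0 against clusters 2 and 3. Share intervals are exact Clopper-Pearson 95% intervals. Genes that share a symbol (38 symbols) were separated by identifier, and positions are from GENCODE and promoters from RefSeq, both for GRCm38.

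Named genes were the 6 genes the study names for these clusters (H2afz, Lyz2, Sub1, Fos, Jun and Dusp1), the 12 most positive and 12 most negative log2 fold changes of cluster 0 against clusters 2 and 3 and the 5 most positive and 5 most negative of cluster 2 against cluster 3 (past the threshold, at least 50 CPM, same direction in all 3 libraries), the 4 most abundant tested members of each of 27 lists, and Clec9a and Gsn. Of these, 1 is not reported here, though the counts of named genes include it. Other list members were named after their values were seen. The members and lists were chosen with earlier results of these data known.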

Additional observations from a re-analysis of the deposited data

Results flagged for a closer look

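Cd83, a maturation marker of dendritic cells, had an adjusted p below the threshold in cluster 0 against clusters 2 and 3 with a log2 fold change of 0.27 (adjusted p 0.0160 in edgeR). It is listed because the sign of 1 library differed when no TMM factors were used. The log2 ratio of CPM in cluster 0 over clusters 2 and 3, taken without TMM factors, was 0.18 for WT, -0.0021 for sGSN-/- and 0.29 for sGSN-/-Clec9a-/-. With the TMM factors of the fit the ratios were 0.310, 0.114 and 0.387, so that the libraries shared the direction of the call. The difference between the genotypes was not tested, as each has 1 library. The call was lost without TMM factors (adjusted p 0.114), without the WT library (0.0808), without the sGSN-/-Clec9a-/- library (0.0606) and against cluster 3 alone (0.683), with a range over the alternatives of 5.04e-07 to 0.683.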

How the results depend on the processing

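The number of genes called between cluster 0 and clusters 2 and 3 was 1107 in DESeq2, 2787 with the library as a replicate block and 1223 with thinned cells, and ranged from 836 to 1438 when 1 library was left out, against 1854. Between clusters 2 and 3 it was 398 in DESeq2 and 1056 with the replicate block, and ranged from 242 to 474 with 1 library left out, against 613. All 1854 and all 613 genes were among those called with the block. Fewer samples and, for thinned cells, fewer UMIs went into some of these fits. The cause of the other differences was not tested. Without doublets, without a filter on low counts and with all clusters in the fit both counts were within 1.5 times the value given. Shares of cluster 0 moved by less than their intervals without doublets and among deep cells.

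Of 1672 values of named genes under the alternatives, 1483 kept their side of the threshold, with the same sign wherever either value had passed, 85 lost the call, 98 gained it and 6 changed sign. The latter followed from which cluster stood on the other side. Against cluster 2 alone, Junb had a log2 fold change of 0.32, Snhg15 of 0.71 and Atf3 of 0.0153. Against cluster 3 alone, Ccl7 had 0.21, Ccl3 0.18 and Xcr1 0.40. With the replicate block 97 of 141 values of named genes kept their side of the threshold and 44 passed that had not, and the block changed no other call. Il12b, Tnf and Cd80 were scarce, and the part of depth in their values was not tested.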
